A study of Saccharomyces cerevisiae with 16 samples.

Results

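The first 280 nt of the yeast pre-rRNA, the start of the 5′ external transcribed spacer (5′ ETS), were examined in chemical probing profiles of purified small subunit (SSU) processomes. The stretch was chosen by position, as positions 1 to 280 counted from the 5′ end of the 35S profile, and ends before the first segment of the 5′ ETS that pairs with the U3 snoRNA. It made up 280 of the 6647 positions of the profile, and 118 of its 3042 A and C positions. It held 72 A and 46 C, the bases read by dimethyl sulfate (DMS). The 5′ ETS as a whole took positions 1 to 700, which is also the length of ETS1-1 in the RefSeq table of assembly R64, and 18S rRNA followed at 701 to 2500.

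The particles came from Saccharomyces cerevisiae cells and were pulled down by a TAP tag on Utp10, which both genotypes carried. The cells had either Has1-H375A, in which the helicase Has1 carries the H375A substitution, or Has1-WT, the unsubstituted protein. The comparison covered 4 groups of 4 libraries, namely H375A with DMS, WT with DMS, H375A untreated and WT untreated, all grown in YPD to mid-log phase. DMS was used at 1% and 30 °C for 5 min, and the submitters describe the replicates as biological, each DMS sample with an untreated control of its own. A purification through Utp10 collects every particle that holds the tagged protein, so each profile is an average over those particles. The Has1 genotype could not be checked in rRNA profiles.

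The 5′ ETS is transcribed first and serves as the platform on which the SSU processome assembles. Its 5′ end is bound by UtpA, the subcomplex to which Utp10 belongs, and segments further downstream pair with the U3 snoRNA, which chaperones the folding of 18S. The spacer is cut away at the A0 and A1 sites and degraded. Has1 is a DEAD-box RNA helicase needed for the assembly of both ribosomal subunits. In DMS-MaPseq, DMS methylates the pairing face of A and C where it is not protected by base pairing or protein, and reverse transcriptase reading across that base introduces a mutation. The mutation rate is the share of reads covering a position that carry a mutation there.

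The sequence is shown first because all values below are read along it. Capitals mark the A and C at which DMS raised the mutation rate in both genotypes.
Positions 1 to 280: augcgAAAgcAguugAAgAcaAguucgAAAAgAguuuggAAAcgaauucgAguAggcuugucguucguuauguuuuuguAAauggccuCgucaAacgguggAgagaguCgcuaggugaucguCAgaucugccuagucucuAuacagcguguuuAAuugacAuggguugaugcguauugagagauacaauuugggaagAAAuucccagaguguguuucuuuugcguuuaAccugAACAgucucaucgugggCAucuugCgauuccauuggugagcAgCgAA

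Base pairing was predicted for this sequence alone, with no protein or snoRNA. The structure of lowest free energy, at −105.8 kcal/mol, had 102 base pairs, and 267 of the 280 positions had the same pairing partner, or none, when the whole 5′ ETS was folded. It held 4 hairpins, each closed by a loop of 4 nt. They are printed with the loop in capitals, since every A and C in them was raised by DMS.
Hairpin 1, positions 32 to 49: gaguuugGAAAcgaauuc
Hairpin 2, positions 104 to 140: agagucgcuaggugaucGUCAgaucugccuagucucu
Hairpin 3, positions 163 to 232: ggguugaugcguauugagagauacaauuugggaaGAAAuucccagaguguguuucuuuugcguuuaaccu
Hairpin 4, positions 238 to 274: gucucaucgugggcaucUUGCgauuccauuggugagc
The loops of hairpins 1 and 3 have the same sequence, GAAA, a member of the GNRA class of tetraloops.

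Depth set how well each rate was known. The median effective depth, the number of reads of sufficient quality over a position, was 621 to 11053 over the 280 positions in the H375A DMS libraries and 961 to 5128 in the WT DMS libraries. It was 616.5 to 10789.5 in the untreated H375A and 894 to 4977 in the untreated WT libraries. At A161, H375A DMS replicate 1 had 5 mutated reads of 655, with a 95% Wilson interval of 0.326% to 1.77%, whereas replicate 3 had 150 of 10978, with an interval of 1.17% to 1.60%. Whether PCR copies were collapsed to molecules is not known here, and such intervals cover the counting error of reads only. Of the 118 A and C, position 1 did not reach the depth of 100 reads required in all 16 libraries. Another 1 had under 10 mutated reads over all 16 libraries, which left 116 for the test of DMS against untreated.

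DMS raised the mutation rate at 51 of these 116 sites in H375A processomes and at 50 of 116 in WT processomes (edgeR quasi-likelihood test, Benjamini-Hochberg adjusted p under 0.05). Over all 1153 A and C sites tested upstream of the A2 cleavage site, 49.4% were raised in H375A and 45.5% in WT, so the stretch held about the same share. At 45 of 116 sites the rate was raised in both genotypes, against 40.8% of all sites tested. A further 6 sites passed in H375A alone and 5 in WT alone, 60 passed in neither, and 0 were lowered, where 0.0867% of all sites were in WT and 0% in H375A. Of all 1153 sites, 570 were raised in H375A, 525 in WT and 470 in both. Sites that passed in a single genotype, or in neither, were thus also present outside the stretch. The median change, DMS over untreated on the log2 scale, was 0.74 over the 116 sites in H375A, against 1.02 over all sites, and 0.70 in WT, against 1.08.

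A carried more of the raised sites than C. DMS raised 38 of 71 A in both genotypes and 7 of 45 C, where 51.4% of all 687 A and 25.1% of all 466 C tested were raised. The mean rate over all 71 A was 1.00 ± 0.14% with DMS and 0.357 ± 0.046% without in H375A, and 1.07 ± 0.11% and 0.382 ± 0.033% in WT (SD, n = 4). Over the 46 C it was 0.822 ± 0.081% with DMS and 0.334 ± 0.011% without in H375A, and 0.841 ± 0.048% and 0.336 ± 0.027% in WT (SD, n = 4). DMS thus multiplied the mean rate by 2.80 and 2.81 at A, and by 2.46 and 2.50 at C, in H375A and WT. At G, which DMS methylates away from the pairing face, the factors were 1.23 and 1.21, and at U, 1.10 and 1.11. All 4 DMS libraries lay above all 4 untreated libraries for A, C and G in either genotype, which gives the smallest exact two-sided permutation p of 4 against 4, 0.0286. Adjusted over the 16 comparisons by base that value was 0.0762, so none of the 16 passed, and the differences between H375A and WT had exact p of 0.457 or more. These tests did not pair each DMS library with its own untreated control.

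**Figure D1:**
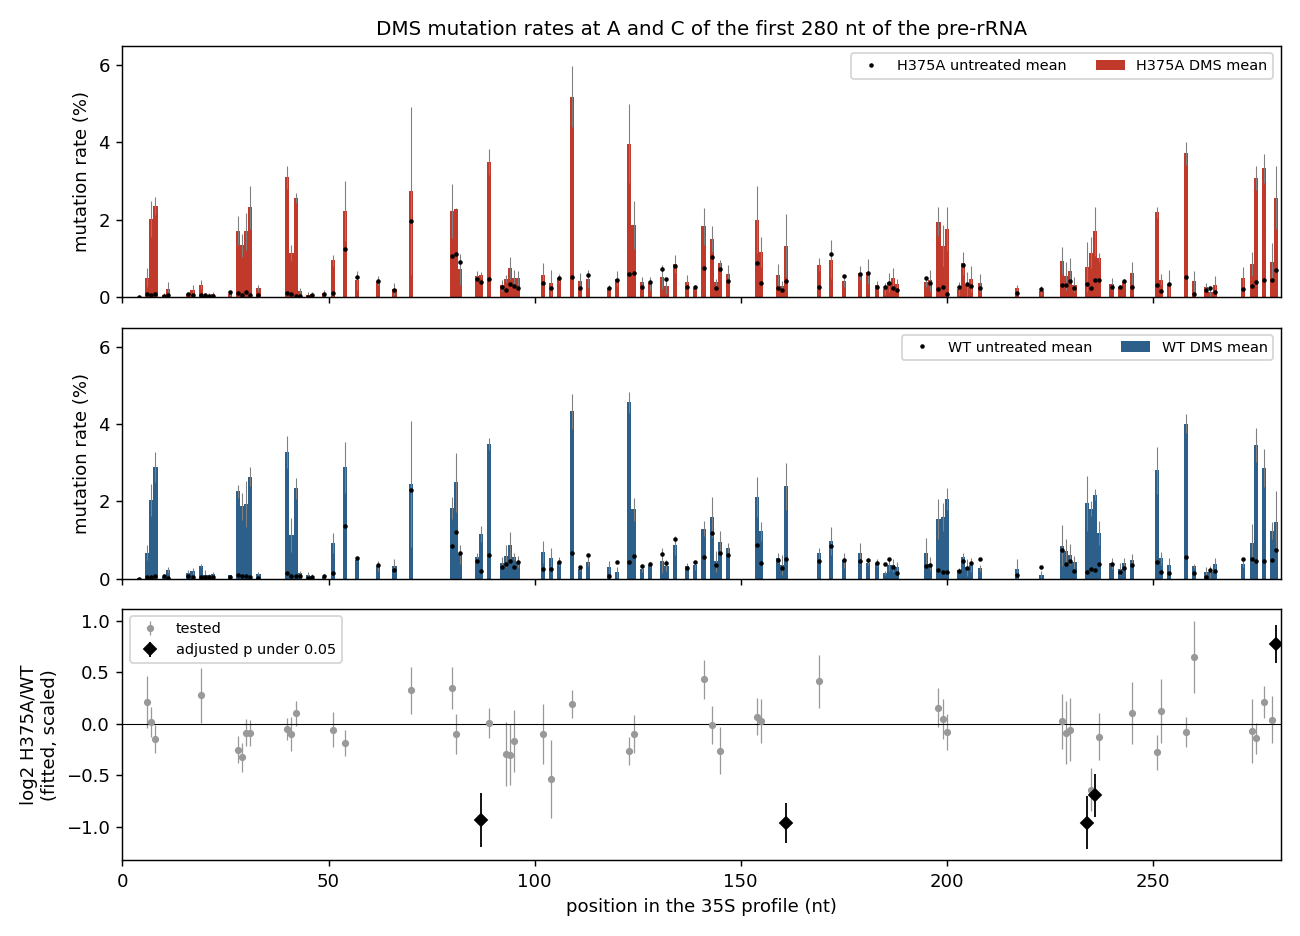
Mutation rate (%) at the 117 A and C of positions 1 to 280 with a depth of at least 100 reads in every library, against position (nt), for H375A (top) and WT (middle): bars are means of 4 DMS libraries with SD, and black dots are means of 4 untreated libraries. The bottom panel gives the fitted log2 change, H375A over WT, with its SE at the 53 sites tested; the tall peaks stand at the same positions in both genotypes, and 5 sites, drawn as diamonds, passed the test.

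The peaks of the profile were shared by the genotypes. Across the 117 sites the mean DMS rates of H375A and WT had a Pearson r of 0.959, which is a description, as sites of one library share its depth and preparation. Between single libraries r was 0.745 to 0.951 within H375A, 0.890 to 0.977 within WT and 0.789 to 0.952 across genotypes. Of the 10 sites with the highest rate above untreated in WT, 6 were C, although C made up the smaller part of the sites. These were C89, C109, C123, C251, C258 and C277, beside A8, A31, A40 and A275.

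The highest of them, C109 in H375A and C123 in WT, lie in hairpin 2. C109, an unpaired base inside the stem, had rates of 6.10%, 4.71%, 4.39% and 5.56% in H375A DMS replicates 1 to 4, against 3.72%, 4.65%, 4.24% and 4.72% in WT. Untreated, it had 0.524 ± 0.165% in H375A and 0.654 ± 0.237% in WT (SD, n = 4). The genotypes overlapped, and the fitted log2 change, H375A over WT, was 0.19 ± 0.13 (SE, adjusted p = 0.646 by edgeR). C123, in the loop, had 3.46%, 3.60%, 3.33% and 5.48% in H375A, against 4.36%, 4.68%, 4.32% and 4.88% in WT. Of the H375A libraries, 3 lay below every WT library and 1 lay above them all, and the adjusted p of the difference was 0.430.

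Hairpin 4 had a similar pair. C258, the last base of its loop, had 4.12%, 3.46%, 3.77% and 3.54% in H375A, against 4.19%, 3.69%, 3.98% and 4.20% in WT. C251, unpaired on the 5′ side of the stem, averaged 2.19 ± 0.15% in H375A and 2.80 ± 0.62% in WT (SD, n = 4), with a fitted log2 change of −0.28 ± 0.17 (SE, edgeR adjusted p = 0.546). At the foot of the hairpin, A275 averaged 3.07 ± 0.31% in H375A and 3.47 ± 0.44% in WT (SD, n = 4). C277, which the fold pairs with position 85, had 3.33 ± 0.38% in H375A and 2.86 ± 0.49% in WT (SD, n = 4), so it was reactive where the fold has a pair. C89 averaged 3.50 ± 0.34% and 3.47 ± 0.16% (SD, n = 4), with a fitted log2 change of 0.00 ± 0.15 (SE). None of these 5 sites differed between genotypes by the edgeR test.

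All 9 A and C of the 4 tetraloops were raised by DMS in both genotypes. In loop 1, A40 had 2.71%, 3.40%, 3.24% and 3.04% in H375A, against 2.79%, 3.77%, 3.37% and 3.18% in WT. Its neighbour A41 averaged 1.13 ± 0.21% in H375A and 1.13 ± 0.44% in WT, and A42 averaged 2.57 ± 0.12% and 2.34 ± 0.28% (SD, n = 4). The middle A of the run was thus the lowest of the 3 in both genotypes. In loop 3, with the same 4 letters, A198 averaged 1.95 ± 0.37% in H375A and 1.54 ± 0.53% in WT, A199 1.33 ± 0.54% and 1.59 ± 0.37%, and A200 1.76 ± 0.58% and 2.07 ± 0.29% (SD, n = 4). The first A of loop 3 was lower than the first A of loop 1 in every DMS library. A124, which closes loop 2 beside C123, averaged 1.86 ± 0.62% in H375A and 1.80 ± 0.30% in WT (SD, n = 4). The loop G rates stayed near those of untreated RNA: G39 had 0.0809 ± 0.0732% with DMS in H375A and 0.115 ± 0.080% in WT (SD, n = 4), against untreated means of 0.142% and 0.134%.

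**Figure D2:**
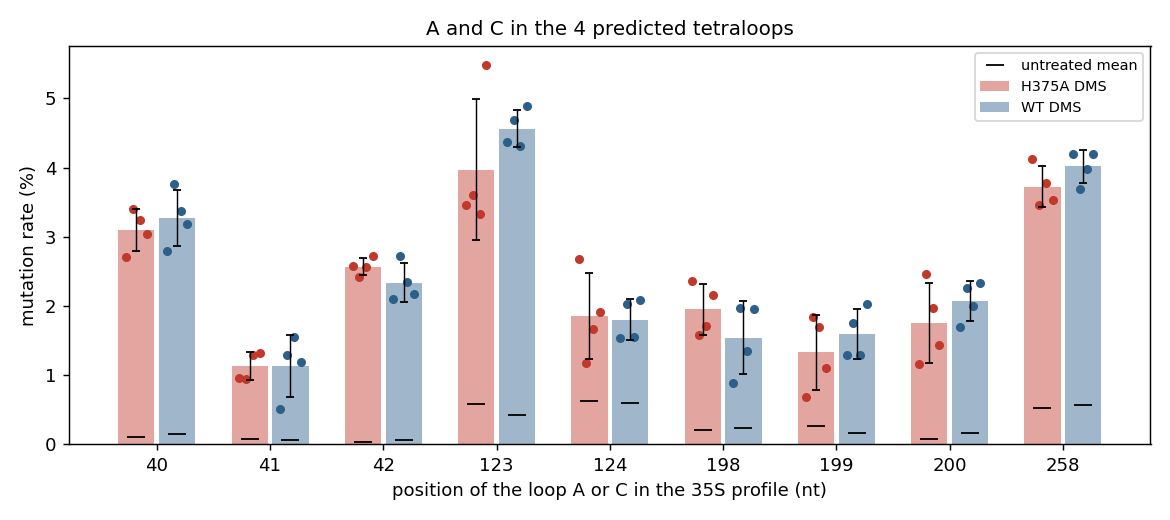
Mutation rate (%) of the 9 A and C in the predicted tetraloops, by position (nt), with H375A left of WT at each position: bars are means of 4 DMS libraries, points the libraries, error bars SD, and short black lines the untreated means. C123 and C258 are the highest and A41 the lowest, with points of the 2 genotypes overlapping at each position.

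The stems around these loops stood far below the loops. In hairpin 2, 0 of the 13 paired A and C of the stem were raised in both genotypes, and their mean rate above untreated was 0.00523 percentage points in H375A and −0.0407 in WT. Its 2 loop sites averaged 2.31 points in H375A and 2.67 in WT. In hairpin 3, the longest with 30 pairs, 1 of 22 stem sites was raised in both genotypes, A229, at 0.241 points above untreated in H375A and 0.331 in WT. Its 3 loop sites averaged 1.5 points in H375A and 1.55 in WT. Hairpin 1 had 1 of 5 stem sites raised in both, and its stem stood 0.0737 points above untreated in H375A and 0.0547 in WT. Hairpin 4 had the highest of the 4 stem means, 0.171 points in H375A and 0.136 in WT. Of its 12 stem sites 1 was raised in both genotypes, and A260, A265 and C274 passed in H375A alone. Other stems held such sites too: in hairpin 3 A169 and A228 passed in H375A alone and C231 in WT alone. A45 in hairpin 1 and A104 in hairpin 2 passed in WT alone.

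Over the whole stretch, A and C left unpaired by the fold were more reactive than paired ones. The mean rate above untreated at the 36 unpaired sites was 1.43 ± 0.23 percentage points in H375A and 1.59 ± 0.24 in WT, against 0.206 ± 0.028 and 0.182 ± 0.015 at the 81 paired sites (SD, n = 4). The ratio of unpaired to paired had a geometric mean of 6.92 in H375A, with libraries from 4.68 to 8.64, and of 8.68 in WT, with libraries from 6.65 to 10.1. It was above 1 in all 8 DMS libraries (exact two-sided sign-flip test, p = 0.0078, the smallest 8 libraries allow). The ratio was lower in H375A by 0.33 on the log2 scale, with overlap between genotypes (exact permutation test, p = 0.257). Taken by base, the geometric mean ratio was 18.2 in H375A and 24.9 in WT for C, and 4.29 and 5.21 for A.

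**Figure D3:**
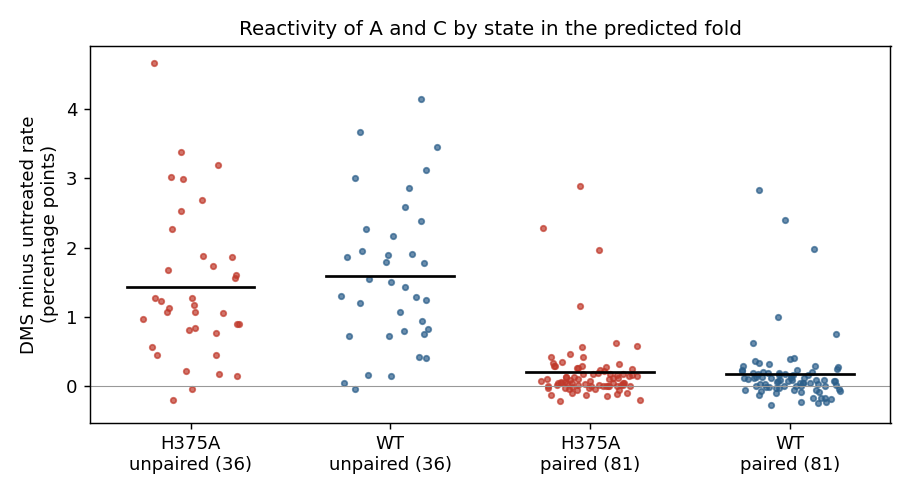
Rate above untreated (DMS minus untreated, percentage points) of each A and C, grouped by its state in the predicted fold, H375A left of WT, with the number of sites in parentheses. Horizontal lines are means over sites, 1.43 and 1.59 for unpaired, 0.206 and 0.182 for paired; a few paired sites reach past 1 point in both genotypes.

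DMS raised 30 of 36 unpaired sites in both genotypes and 15 of 80 paired ones. The 15 were not spread evenly: 8 lie between positions 6 and 22, in the helix that the fold builds between the 5′ end and positions 58 to 76. A8, predicted to pair with position 74, had 2.09%, 2.25%, 2.59% and 2.52% in H375A, against 3.45%, 2.64%, 2.62% and 2.86% in WT. The H375A libraries all lay below the WT libraries, by a fitted log2 change of −0.15 ± 0.14 (SE, edgeR adjusted p = 0.876). A7 averaged 2.02 ± 0.47% in H375A and 2.03 ± 0.41% in WT (SD, n = 4), and A80, predicted to pair with position 2, stood 1.16 points above untreated in H375A and 0.996 in WT. The other paired sites raised between positions 11 and 22 were low, at 0.0122 to 0.274 points in H375A and 0.0959 to 0.284 in WT.

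The run of A28 to A31, between this helix and hairpin 1, was raised throughout. A31 had 1.56%, 2.41%, 2.46% and 2.88% in H375A, against 2.69%, 2.42%, 2.96% and 2.47% in WT, and 0.0469 ± 0.0330% and 0.0528 ± 0.0129% untreated (SD, n = 4). That is a fitted log2 change, DMS over untreated, of 5.41 ± 0.38 in H375A (SE, edgeR adjusted p = 2.2e-33) and 5.53 ± 0.35 in WT (SE, edgeR adjusted p = 2.8e-52).

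Such large folds at the very 5′ end go with a low rate in untreated RNA. The mean untreated rate over the 25 A and C from position 2 to 50 was 0.0595 ± 0.0135% in H375A and 0.0523 ± 0.0088% in WT, against 0.427 ± 0.042% and 0.448 ± 0.038% over the 92 from 51 to 280 (SD, n = 4). The boundary was placed after the values were seen. In the first 50 nt 16 of 24 tested sites were raised in both genotypes, against 40.8% of all 1153 sites tested. The part of the low untreated rate in that count was not tested. Depth also changed along the stretch: the median over libraries of depth relative to 18S was 4.73 in positions 1 to 40, 3.98 in 41 to 80 and 1.94 to 2.34 in the 5 windows that follow.

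**Figure D4:**
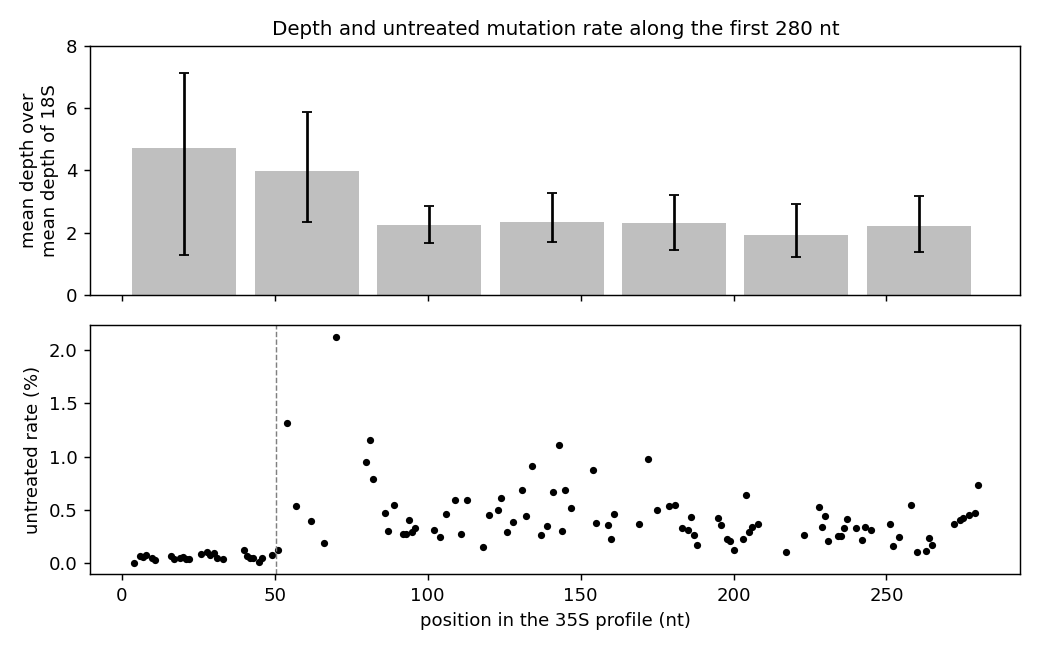
Top, mean effective depth of each 40-nt window divided by that of 18S, as the median over the 16 libraries with the lowest and highest library; bottom, untreated mutation rate (%) of each A and C, mean of the 8 untreated libraries, against position (nt). Depth is highest in the first 2 windows, and the untreated rate steps up past position 50 (dashed line).

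The 3 A or C with the highest untreated rate were A54, A70 and A81. A70 varied most: it had 0.324%, 2.91%, 5.58% and 2.15% with DMS in H375A, against 1.20%, 3.61%, 4.06% and 0.878% in WT. Untreated it had 0.379%, 3.09%, 3.34% and 1.07% in H375A, against 0.304%, 1.82%, 6.03% and 0.995% in WT. The rates followed the replicate more than the treatment, and DMS did not pass the test at A70 in either genotype (edgeR adjusted p = 0.142 in H375A and 0.839 in WT). In WT it did without replicate 3 (log2 change 0.92, edgeR adjusted p = 0.0147). A54 had 2.22 ± 0.78% with DMS and 1.25 ± 0.75% without in H375A, and 2.88 ± 0.66% and 1.37 ± 0.56% in WT (SD, n = 4). A81 had 2.29 ± 0.02% with DMS and 1.11 ± 0.63% without in H375A, and 2.49 ± 0.76% and 1.20 ± 0.79% in WT (SD, n = 4). Both were raised in both genotypes, although in H375A A54 missed the threshold without replicate 3 or 4 (edgeR adjusted p = 0.0970 and 0.118) and A81 without replicate 1 or 2 (0.0672 and 0.0578).

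The comparison of H375A with WT was made on the DMS libraries, with each library scaled to its median site. Sites needed a mean DMS rate, over the libraries of both genotypes together, at least 0.2 points above the untreated mean. A site could thus pass this filter through the genotype with the higher rate, as C87 did. Of the 118 A and C, 53 entered, 42 A and 11 C, and 5 of the 53 differed (edgeR adjusted p under 0.05, adjusted over all 725 sites upstream of A2). Of all 725 sites 3.59% differed. The rate was lower in H375A at C87, A161, A234 and C236, 4 of 53 where the share over all sites was 2.48%, and higher at A280, 1 of 53 where it was 1.10%. The tested sites of the stretch were also deeper: their shallowest library had a median depth of 570 reads, against 330 over all 725 sites, and the part of depth in the count was not tested. The median log2 change, H375A over WT, was −0.08 over the 53 and 0.02 over the 725, with 32 of the 53 below 0, and 8 of 53 had an unadjusted p under 0.05. With the 5′ ETS fitted alone 6 of the 53 were called, against 13.0% of all 161 sites in that fit. All 5 sites were unpaired in the fold, as were 33 of the 53 tested.

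The 5 sites are shown with 12 nt on either side and the site in capitals, to place them against the hairpins above.
C87, positions 75 to 99: uuuguaaauggcCucgucaaacggu
A161, positions 149 to 173: uguuuaauugacAuggguugaugcg
A234, positions 222 to 246: gcguuuaaccugAacagucucaucg
C236, positions 224 to 248: guuuaaccugaaCagucucaucgug
A280, positions 268 to 292: ggugagcagcgaAggauuuggugga
A161 lies 2 nt before hairpin 3, and A234 and C236 lie between the end of hairpin 3 at 232 and the start of hairpin 4 at 238. A280 is the last base of the stretch, and C87 lies 2 nt before the highly reactive C89.

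A161 had 0.763%, 0.704%, 1.37% and 2.46% in H375A DMS replicates 1 to 4, against 1.52%, 2.84%, 2.42% and 2.77% in WT. H375A replicates 1 to 3 lay below every WT library and replicate 4 lay among them. The fitted log2 change, H375A over WT, was −0.96 ± 0.20 (SE, edgeR adjusted p = 0.00073). Untreated, the site had 0.426 ± 0.210% in H375A and 0.497 ± 0.125% in WT (SD, n = 4). It remained under the threshold without any single library, with an adjusted p of 0.0382 at most, and it was the only one of the 5 that DESeq2 called (adjusted p = 0.0414). A quasi-binomial model fitted to each site alone gave it an adjusted p of 0.140 and called C87 alone.

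A234 had 0%, 0.632%, 0.970% and 1.55% in H375A, against 1.75%, 1.85%, 1.23% and 2.95% in WT. The 0% of H375A replicate 1 is 0 of 523 reads, which allows a rate of up to 0.574% by the limit of 3 counts, with a 95% Wilson upper bound of 0.729%. Only H375A replicate 4 lay above a WT library. The fitted log2 change was −0.96 ± 0.25 (SE, edgeR adjusted p = 0.0141), and the call was lost without H375A replicate 2 or 3 or WT replicate 2 or 4 (adjusted p = 0.0910, 0.0810, 0.0645 and 0.101). Untreated, A234 had 0.331 ± 0.175% in H375A and 0.171 ± 0.203% in WT (SD, n = 4). Its neighbour A235, which was not called (edgeR adjusted p = 0.0706), had 0.575%, 1.45%, 1.14% and 1.42% in H375A, against 1.62%, 1.85%, 2.06% and 1.72% in WT. At A235 the genotypes did not overlap, and it was called under 2 alternatives, with scaling from 25S sites (adjusted p = 0.0245) and with the 5′ ETS fitted alone (0.0217).

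C236 had 2.33%, 1.17%, 1.15% and 2.14% in H375A, against 2.01%, 2.21%, 2.12% and 2.36% in WT. Replicates 2 and 3 of H375A, the deepest of that genotype, were low and the other 2 lay within the WT range. The fitted log2 change, which weights deep libraries more, was −0.69 ± 0.21 (SE, edgeR adjusted p = 0.0441). Without H375A replicate 3 it was −0.35 (adjusted p = 0.767), and the call was also lost without H375A replicate 2 (0.226) or WT replicate 2, 3 or 4 (0.217, 0.230 and 0.0978) and with the replicate number as a block (0.0617). Untreated, C236 had 0.599%, 0.243%, 0.232% and 0.644% in H375A, against 0.283%, 0.176%, 0.419% and 0% in WT, where the 0% is 0 of 850 reads.

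C87 had 0.469%, 0.582%, 0.611% and 0.641% in H375A, against 0.897%, 1.20%, 1.09% and 1.41% in WT. The genotypes did not overlap, and the fitted log2 change was −0.93 ± 0.26 (SE, edgeR adjusted p = 0.0266). The untreated means had the opposite order, at 0.399 ± 0.223% in H375A and 0.202 ± 0.117% in WT (SD, n = 4). The untreated libraries overlapped, and H375A replicate 4, the highest, had 5 mutated reads of 687. Measured from these means, C87 stood 0.177 points above untreated in H375A and 0.949 in WT, so it passed the 0.2-point filter through WT. Without that filter it was also called (edgeR adjusted p = 0.0430). At C87 DMS passed the test against untreated in WT (adjusted p = 1.1e-08) and not in H375A (edgeR adjusted p = 0.0676). The call between genotypes was lost without H375A replicate 2 or 3 or WT replicate 2, 3 or 4 (adjusted p = 0.0594 to 0.193).

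A280 had 1.36%, 3.07%, 2.73% and 3.14% in H375A, against 0.390%, 2.12%, 1.41% and 2.0% in WT. Replicates 2, 3 and 4 of H375A lay above every WT library, and replicate 1 was the lowest library in either genotype. The fitted log2 change was 0.77 ± 0.19 (SE, edgeR adjusted p = 0.0063), and the call was lost without H375A replicate 2 or WT replicate 3 (adjusted p = 0.0796 and 0.112). Untreated, the site had 0.705 ± 0.522% in H375A and 0.753 ± 0.199% in WT (SD, n = 4).

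**Figure D5:**
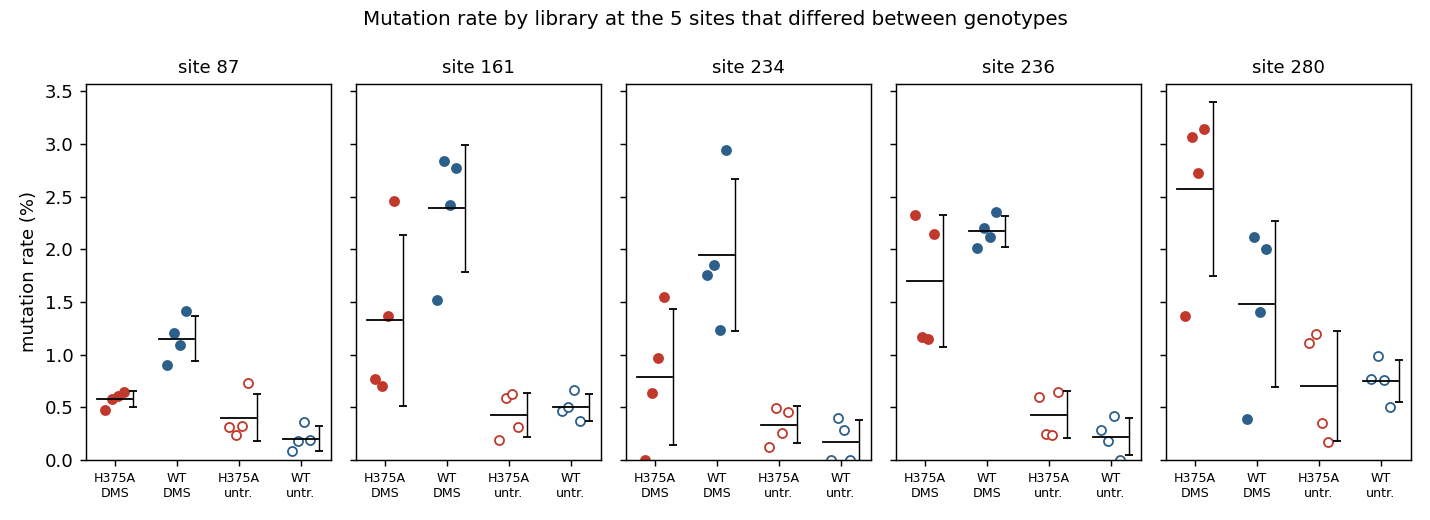
Mutation rate (%) in each library at positions 87, 161, 234, 236 and 280, in 4 columns per panel: H375A DMS, WT DMS (filled), H375A untreated, WT untreated (open). Lines are means of 4 libraries and bars SD; H375A DMS means are the lower of the 2 DMS means in the first 4 panels and the higher at position 280.

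Sites whose 4 H375A libraries all lay on one side of all 4 WT libraries in the deposited rates numbered 4 of 53, where 5.24% of all 725 sites did. They were A8, A28, C87 and A235, all lower in H375A. With a ratio of means of at least 1.5 as well, 2 of 53 were left, C87 and A235, where the share over all sites was 4.55%.

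A difference between genotypes in the DMS effect measured against untreated RNA was not called. In the fit with all 16 libraries, the genotype by treatment interaction passed at 0 of 116 sites, as at 0% of all 1153 (lowest edgeR adjusted p 0.898, with 5 of 116 under an unadjusted p of 0.05; DESeq2 also called 0). At the 5 sites the interaction on the log2 scale was −1.44 ± 0.55 for C87, −0.93 ± 0.43 for A161, −1.29 ± 0.57 for A234, −0.69 ± 0.55 for C236 and 1.05 ± 0.43 for A280 (SE). Each had the sign of the difference between DMS libraries, which adds no separate evidence, as the 5 were picked from those same libraries. In the untreated libraries alone, 0 of 156 positions of all 4 bases differed between genotypes, as at 0% of all 554 tested (lowest edgeR adjusted p 0.997, with 2 of 156 under an unadjusted p of 0.05, and DESeq2 called 0). Of the 5 sites only A161 and A280 entered this test, as C87, A234 and C236 had too few mutated untreated reads. With a minimum of 5 mutated reads on average, 0 of 239 positions differed, as at 0 of all 1483 tested.

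By 40-nt window, the mean scaled DMS rate differed in 0 of the 7 windows, as in 0% of all 62 windows to A2 (limma, adjusted p under 0.05). The window from 201 to 240, which holds A234 to C236, was lowest in H375A relative to WT, at a log2 change of −0.43 ± 0.10 (SE, limma adjusted p = 0.0885). Without H375A replicate 4 it was −0.50 and passed (limma adjusted p = 0.0152). Positions 1 to 40 had −0.21 ± 0.09 (SE, limma adjusted p = 0.312), and the other 5 windows lay between −0.16 and 0.04.

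Over the 53 sites together, the mean scaled rate was 1.61%, 1.54%, 1.64% and 1.63% in H375A replicates 1 to 4, against 1.78%, 1.68%, 1.65% and 1.68% in WT. The genotypes did not overlap, although the closest libraries were 1.64% and 1.65%. The log2 difference was −0.080 (exact two-sided permutation test, p = 0.0286, the smallest possible). With scaling from 25S sites it was −0.206, with the same exact p. It was not past 0.05 without scaling (−0.107, exact p = 0.400), nor when any one library other than WT replicate 2 was left out. The difference was also more negative than that of 18S in the same libraries, by 0.093 on the log2 scale (exact p = 0.0286), and was within 0.008 of that of the rest of the 5′ ETS (exact p = 0.714). Set against 18S with the untreated rate subtracted, the shift was −0.104 (exact p = 0.0571), and the call was also lost without H375A replicate 2 or any one WT replicate (exact p = 0.0571 each).

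In level, the stretch was less reactive at A than 18S. The mean rate of A above untreated was 0.642 ± 0.139 points in H375A and 0.689 ± 0.105 in WT, against 0.820 ± 0.169 and 0.836 ± 0.173 in 18S (SD, n = 4). The log2 ratio to 18S was −0.31 on average over the 8 DMS libraries (exact sign-flip test, p = 0.0078), and to the rest of the 5′ ETS −0.18 (exact sign-flip test, p = 0.0156). At C the mean was higher than in 18S, at 0.488 ± 0.081 points in H375A and 0.505 ± 0.048 in WT, against 0.394 ± 0.026 and 0.409 ± 0.041 (SD, n = 4), a log2 ratio of 0.30 (exact sign-flip test, p = 0.0078). The median over C sites had the opposite direction, with a log2 ratio of −1.80, and the mean C rate was not above that of the rest of the 5′ ETS (log2 ratio −0.09, exact sign-flip test, p = 0.297). Of the 45 C tested, 35 were raised by DMS in neither genotype.

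The stretch was covered more deeply than 18S in every library. With DMS, its mean depth was 1.68, 2.81, 2.70 and 2.65 times that of 18S in H375A replicates 1 to 4, against 2.35, 3.73, 3.76 and 3.40 times in WT. Untreated, it was 1.70, 2.72, 2.69 and 2.34 times in H375A, against 2.48, 3.37, 3.96 and 3.03 times in WT. Replicate 1 was the lowest of its group in all 4 groups. The log2 difference between genotypes was −0.43 with DMS (exact permutation test, p = 0.114) and −0.44 untreated (exact p = 0.0857). Without WT replicate 1 it was −0.59 with DMS and −0.56 untreated (exact p = 0.0286 in both, the smallest that 4 against 3 allows). Relative to the 5′ ETS between this stretch and the A0 site, depth was 1.23 ± 0.04 in H375A and 1.29 ± 0.07 in WT with DMS (SD, n = 4; log2 difference −0.07, exact p = 0.2). More particles with the spacer and less of other rRNA in a library cannot be told apart in such ratios.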

How the data were processed

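DMS-MaPseq profiles of 16 libraries were used, with 1 row per nucleotide of a pre-rRNA sequence of 6647 nt. Per the file headers, the authors deposited counts of mutated reads, read depth and effective depth, and a mutation rate as a fraction, equal within 1e-06 to mutated reads over effective depth in all 16 files, with no untreated rate subtracted. The aligner, mutation caller, versions, filters and genome build are not given in the sources used here, and such filters act on all rates. Positions are those of the profile and no genome coordinates are given. RefSeq R64 was used for names and lengths. The A2 site (position 2712) and A0 site (610) were entered from general knowledge.

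Mutated reads were tested with edgeR 4.0.16 (quasi-likelihood, R 4.3.3), with the log of effective depth as offset, over A and C to A2 with a depth of at least 100 in all 16 libraries. Between genotypes the offset included a scaling factor (median ratio to the geometric mean rate). Sites needed a mean DMS rate 0.2 points above untreated and an untreated rate under 5%, each as a mean over both genotypes together. P-values were adjusted over all sites tested. Windows used limma 3.58.1. Folding used ViennaRNA 2.7.2. Single values were compared by exact two-sided permutation over libraries, or sign-flip tests. DESeq2 1.42.0, a per-site quasi-binomial model, other filters, scalings and folds, and leaving out each library were alternatives. The site and window tests were also run on simulated data with planted changes and a fixed spread. Those runs do not show how the tests perform at changes smaller than those planted or at the spread of these libraries. The members and lists were chosen with earlier results of these data known. Named sites were those called, the 10 highest above untreated in WT, the 3 highest untreated, and those without overlap and at least 1.5 times apart; A6 to A8, A28, A80, A229, the loop sites and the boundary at position 50 were picked after their values were seen. The submitters' design gives each DMS sample its own untreated control, which pairs equal numbers within a genotype. The main tests of DMS against untreated did not use these pairs, and a replicate block was run as an alternative. Rates above untreated were taken from the mean of the 4 untreated libraries of the genotype. Across genotypes, equal numbers correlated at 0.02 to 0.12 in the deviations of the DMS libraries and at 0.04 to 0.24 in the untreated ones. Unequal numbers correlated at −0.11 to 0.11 and at −0.10 to 0.04. Within a genotype, DMS and untreated libraries of equal number correlated at −0.007 to 0.175 in H375A and 0.066 to 0.204 in WT. Those of unequal number correlated at −0.094 to 0.065 in H375A and −0.135 to 0.138 in WT. Equal numbers were not taken as pairs across genotypes, and whether they share a batch was not tested.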

Additional observations from a re-analysis of the deposited data

Results flagged for a closer look

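Groups of 4 libraries were searched for a library far from the other 3, and 3 of the 100 groups checked held one, where chance gives about 5. The depth of positions 1 to 280 relative to 18S was lowest, at 1.68, in H375A DMS replicate 1, against 2.65 to 2.81 in the other 3. At C123, the DMS rate was highest, at 5.48%, in H375A replicate 4, against 3.33% to 3.60%. At A31, the untreated rate in WT was lowest, at 0.0336%, in replicate 4, against 0.0577% to 0.0610%.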

How the results depend on the processing

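The 5 sites called between genotypes (3.59% of all 725) became 6 with scaling from 25S sites (4% of all) and 6 of 53 with the 5′ ETS fitted alone (13.0% of 161). They became 1 with DESeq2 (1.24%), 0 with limma after subtraction of the untreated rate (0.414%, with 7 of 53 under an unadjusted p of 0.05), 3 without scaling (2.90%) and 1 when a quasi-binomial model was fitted to each site (0.966%). Without 1 library the count was 1 to 5. With the replicate number as a replicate block it was 4, without C236. Under the block all 51 DMS calls in H375A remained and 49 of 50 in WT, without A45, and the interaction, the untreated test and the windows stayed at 0. With DESeq2 the DMS counts fell to 38 in H375A and 43 in WT, where 419 and 399 of all 1153 sites were called. In that H375A fit 4 of the 116 sites had no adjusted p. Without 1 replicate the DMS counts were 37 to 52 in H375A and 38 to 52 in WT. Calls in either direction over all 1153 sites then ran from 370 to 591 in H375A and from 351 to 536 in WT. In WT, A70 ran from −0.26 to 0.92 on the log2 scale in those fits, with −0.040 without replicate 1 and −0.26 without replicate 2. The count of windows was 0 to 1 without 1 library. The log2 difference in mean DMS rate was −0.206 with scaling from 25S sites and lost its call without scaling (−0.107), as a mean of log2 rates (−0.135), with the untreated rate subtracted (−0.075) and without the reactivity filter (−0.049), and ran from −0.0905 to −0.0573 without 1 library. Its shift against 18S was −0.104 with the untreated rate subtracted and −0.108 to −0.0689 without 1 library, and that against the rest of the 5′ ETS −0.0158 to 0.0299. Depth relative to 18S, H375A over WT, ran from −0.587 to −0.257 with DMS and −0.561 to −0.294 untreated. DMS over untreated, it was 0.053 in H375A (−0.0970 to 0.227 without 1 library) and 0.040 in WT (−0.0771 to 0.195), and −0.017 in WT over the 5′ ETS to A0. C relative to 18S turned to −0.091 against the rest of the 5′ ETS and −1.80 by the median. The other ratios by pairing and base kept direction and side of the threshold in all alternatives run. For these changes the cause was not tested. At the shallowest depth of 363 reads among the 53 sites, differences of the size seen at single sites rest on few mutated reads per library.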
